A study of Mus musculus with 4 samples.

Results

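Smooth muscle cells (SMC) of the mouse intestinal lamina propria were described in single-cell RNA-seq libraries of small intestine and colon. SMC were selected on their own counts: at least 1 unique molecular identifier (UMI, 1 counted RNA molecule) for at least 3 of *Myh11*, *Actg2*, *Cnn1*, *Lmod1* and *Synpo2*, and 0 UMIs of *Notch3*, *Pdgfra* and *Pecam1*. Barcodes entered this selection with 500 or more genes, 1000 or more UMIs and no more than 10% mitochondrial UMIs, and 1298 of the 32216 that did (4.03%) were members. Small intestine gave 49 members in replicate 1 and 134 in replicate 2, and colon gave 258 and 857. The levels of these 8 genes, and every difference between members and other cells, follow from this choice and are given as descriptions without a test.

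Smooth muscle contracts when calcium entering the cytoplasm activates myosin light chain kinase, which phosphorylates the light chains of smooth muscle myosin so that it pulls on actin filaments. The filaments are anchored at dense plaques, where filamin, vinculin and talin tie them to integrins and to the surrounding matrix. Transcription of the contractile genes depends on serum response factor, which binds a DNA motif called the CArG box, and on its coactivator myocardin. In the gut the bulk of this muscle lies in the muscularis externa, which was stripped off here. The lamina propria and the muscularis mucosae beneath it hold thinner bundles that move the villi and the mucosa.

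Samples were C57BL6/Nrj mice, untreated, female and 8 to 10 weeks old. The labels give 2 experiments of 3 mice each and 2 libraries per intestine, with the mice of an experiment pooled, so that each library is a pool and the spread between 2 libraries is the only replicate error. Cells had been sorted as live, negative for CD45, Ter119, CD31, BP3, EpCAM and L1CAM, and positive for Itgb1. Which of the named kits, 3′ or 5′, was used for which library is not in the labels.

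The libraries held 2061 to 16795 barcodes and 14341443 to 52269372 UMIs. Both replicate 1 libraries had fewer and deeper cells than both replicate 2 libraries, and their matrices carry another Cell Ranger version (3.0.2 against 3.1.0). Members had median UMIs of 5834, 2001, 8142 and 2993 (small intestine, then colon), below the 7085, 2793, 8946 and 4008 of the other cells. Their summed counts, the unit of every comparison between intestines, came to 291246 and 313058 UMIs for small intestine, against 2123449 and 2754716 for colon. Small intestine thus rests on far fewer molecules, and 1 UMI was worth 3.43 CPM (UMIs scaled to the same total in each library) in small intestine replicate 1 but 0.363 CPM in colon replicate 2. *Malat1*, a nuclear lincRNA, stood at 7973 and 6182 CPM in members of the replicate 1 libraries and at 45563 and 46680 CPM in those of replicate 2. It followed the replicate number in both intestines. The 2 replicate 2 libraries had 69 barcodes in common and the 2 replicate 1 libraries 8, and 0 members had a barcode that was also a member elsewhere.

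All 5 markers were detected in 373 members (28.7%), 4 in 720 and exactly 3, the least the rule allows, in 205 (15.8%). Members at this limit were 9 of 49 and 52 of 134 in small intestine and 22 of 258 and 122 of 857 in colon, so that small intestine replicate 2 had the largest part of its members there. Just outside it were 253 cells with 2 markers and 287 cells with at least 3 markers but a UMI of an excluding gene. *Myh11*, the heavy chain of smooth muscle myosin, was at 664, 1903, 1272 and 1740 CPM in members with exactly 3 markers (small intestine, then colon) and at 488, 655, 169 and 680.0 CPM in cells with 2 markers, an order that the use of this gene by the rule favours. At least 1 *Myh11* UMI was found in 98.0% to 99.4% of members per library. Cells with at least 3 of 5 endothelial markers, which should lack *Myh11*, had one in 1.46% (small intestine replicate 1, median 4631 UMIs) and 4.86% (colon replicate 1, median 5317 UMIs) of cells.

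SMC made up a larger share of cells in both colonic libraries than in either small intestinal library. The share of QC-passing cells was 2.67% (95% exact binomial interval 1.98% to 3.52%) and 0.878% (0.736% to 1.04%) in small intestine, and 10.6% (9.42% to 11.9%) and 6.75% (6.32% to 7.21%) in colon. The means were 8.68% ± 2.73 (SD, n = 2) and 1.77% ± 1.27 (SD, n = 2), a difference of 6.91 percentage points. An exact two-sided permutation test gave p = 0.33, the smallest value that 2 against 2 libraries allow. When the rule was applied after thinning each cell to 1000 UMIs the small intestinal shares were 1.69% and 0.622% and the colonic ones 9.05% and 5.49%, in the same order as at full depth. Intervals cover counting error only. How much muscle the stripping of the outer layer left in each intestine is not recorded in the labels, and its part in the share was not tested.

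**Figure D1:**
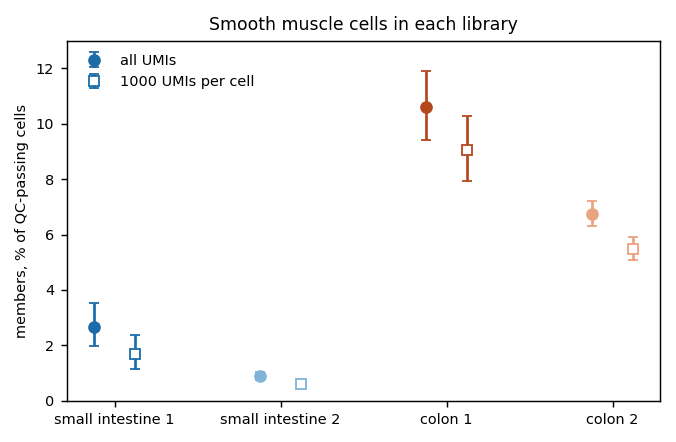
SMC as a percentage of QC-passing cells in each library (points; bars, 95% exact binomial intervals), at full depth (filled circles) and with the rule applied to cells thinned to 1000 UMIs (open squares). The colon libraries sit at 10.6% and 6.75% and the small intestine libraries at 2.67% and 0.878% at full depth.

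Smooth muscle markers were high in members, in part by the choice itself. All 12 genes of a smooth muscle marker list were detected in members of each library. Their summed level was 37198 to 57160 CPM against 1640 to 4696 CPM in the other cells. The 5 markers of the rule are among the 12, and no sum without them was made. Outside the rule's own genes, the 15 with the largest ratio to the other cells in every library were *Actc1*, *Hhip*, *Fbxl22*, *Ctxn1*, *Tagln*, *Acta2*, *Mylk*, *Myl9*, *Tpm2*, *Asb2*, *Flna*, *Ckb*, *Tes*, *Kcnma1* and *Myocd*. Of these, *Acta2* (α smooth muscle actin) was at 15667 and 10452 CPM in small intestinal and 19961 and 13037 CPM in colonic members, against 928, 398, 1819 and 669 CPM in the other cells. *Actc1*, the cardiac α-actin, was at 175, 275, 537 and 231 CPM in members (small intestine, then colon) and at 0.289 to 4.75 CPM in the other cells. Members held 86.0% to 92.7% of all *Actc1* UMIs of QC-passing cells in a library, and 66.2% to 87.5% of those of *Actg2*, the enteric γ-actin. *Acta2* was less restricted, with 26.2% and 15.7% of its UMIs in members in small intestine and 54.1% and 52.4% in colon.

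The leading genes cover several parts of the contractile cell. *Mylk* encodes myosin light chain kinase, *Myl9* the regulatory light chain, *Tpm2* a tropomyosin and *Tagln* transgelin, an actin-binding protein. *Flna* encodes filamin A and *Tes* testin, both of actin anchorage sites. *Kcnma1* encodes the pore of the large-conductance calcium-activated potassium channel that limits contraction, and *Ckb* the brain-type creatine kinase that buffers ATP. *Myocd* encodes myocardin and was at 165 and 125 CPM in small intestinal and 103 and 97.7 CPM in colonic members, against 3.04 to 5.97 CPM in the other cells. *Hhip*, a membrane protein that binds and sequesters hedgehog ligands, was at 649 and 466 CPM in small intestinal SMC and 1275 and 730.4 CPM in colon, against 18.8 to 23.5 CPM.

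**Figure D2:**
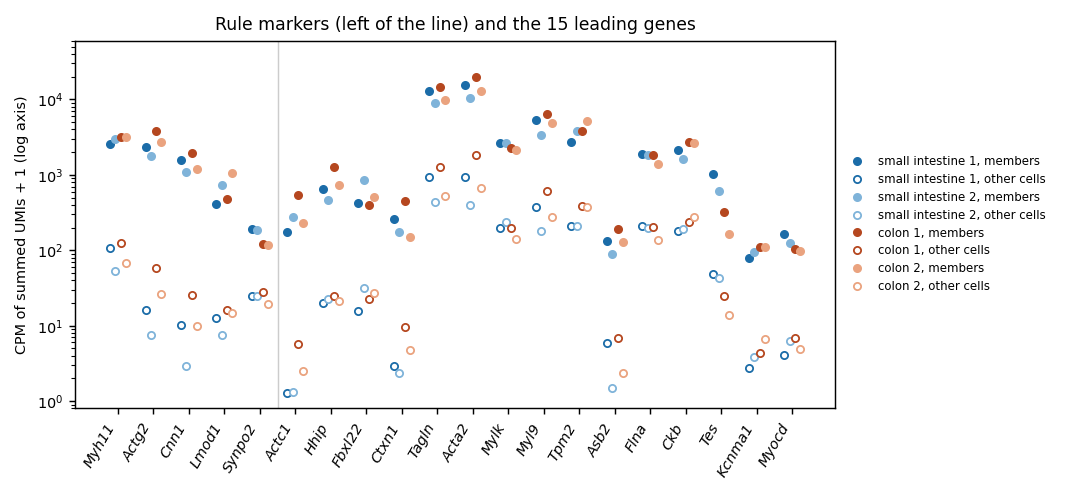
Level of the 5 rule markers (left of the line) and the 15 leading genes in members (filled) and in all other QC-passing cells (open) of each library, as CPM of summed UMIs plus 1 on a log axis. Members lie above the other cells for each gene in each library, as the choice of genes requires.

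To show the letters that serum response factor is known to read, RefSeq promoter windows (250 bases before to 50 after the start, GRCm38.p6) were searched for the CArG box, which reads the same on both strands. It occurred in 535 of 32851 windows (1.63%), or for 488 of 27025 gene symbols (1.81%). Of the 15 leading genes 13 had a window and 4 of these (30.8%) held the box: *Actc1*, *Asb2*, *Fbxl22* and *Myl9*. Of 24 windows of the contractile filament list 2 (8.33%) held it, those of *Myl6* and *Myl9*. Of the 5 rule markers 3 had a window and 0 held it, and among the genes called between intestines below it was found for 0 of 15 that were higher and 0 of 26 that were lower in colon. *Myh11*, *Actg2* and *Tagln* had no window. Boxes outside the windows or with other letters were not searched, so a gene without a match may still hold one. A match is a description of the letters, not evidence of binding. The stretches around it are shown 5′ to 3′ on the gene's strand, with the box in capitals; they lie at chr2:114052876-114052962 (minus), chr12:103356016-103356105 (minus), chr9:66514766-66514843 (minus) and chr2:156775263-156775352 (plus), in this order.
Actc1: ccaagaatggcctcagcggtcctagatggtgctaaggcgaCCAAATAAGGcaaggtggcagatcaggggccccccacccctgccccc
Asb2: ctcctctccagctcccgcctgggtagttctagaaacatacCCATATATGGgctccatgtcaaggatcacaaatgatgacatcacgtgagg
Fbxl22: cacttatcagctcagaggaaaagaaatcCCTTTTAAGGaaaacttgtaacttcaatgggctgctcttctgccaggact
Myl9: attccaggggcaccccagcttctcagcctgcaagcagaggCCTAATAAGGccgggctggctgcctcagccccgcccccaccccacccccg
The box begins 47 bases before the start in *Actc1*, 64 in *Asb2*, 222 in *Fbxl22* and 161 in *Myl9*.

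Gene lists by role showed how far the members stood from the other cells. Over all 9307 genes tested 2689 were higher in members in all 4 libraries and 1589 were lower. Of 30 genes of the contractile filament and its regulators, 24 were higher and 2 were lower. The median log2 ratio of the tested genes was 2.42, against 0.08 over all genes. For the dense plaque, dystrophin complex and caveolae 29 of 36 genes were higher in all libraries (median 1.24), and for calcium handling, channels and cGMP signalling 21 of 37 (median 0.71). The matrix list ran the other way, with 31 of 45 genes lower in members in all libraries (median -0.69). *Npnt* and *Postn* were among its 5 exceptions. *Postn* encodes periostin and was at 1634 and 958 CPM in small intestinal and 4326 and 2343 CPM in colonic members, a difference that was not called (log2 fold change 1.36 ± 0.41 (SE), adjusted p = 0.292). Of 47 receptors for contractile and relaxing signals 7 were higher in all libraries, and of 48 transcription factors 12. Only 18 and 33 of them passed the filter on low counts, which all 9307 genes did. Their shares are therefore not set against that over all genes. The medians of the tested genes were 0.21 and 0.17.

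Cells left out for a UMI of *Notch3*, a receptor of vascular mural cells, differed from members by more than that gene. There were 22 in small intestine replicate 1, 50 in colon replicate 1 and 12 in colon replicate 2, and none in small intestine replicate 2. Their *Myh11* was at 3537, 2073 and 3543 CPM and their *Acta2* at 17419, 14388 and 9695 CPM, against 2579, 3133 and 3159 CPM and 15667, 19961 and 13037 CPM in members of the same libraries. Other markers were lower in them, with *Actg2* at 517, 720 and 954 CPM against 2366, 3785 and 2714 CPM and *Cnn1*, calponin, at 422, 398 and 487 CPM against 1576, 1950 and 1190 CPM. *Hhip* was at 0, 93.3 and 117 CPM in them and at 649, 1275 and 730.4 CPM in members. *Des*, the muscle intermediate filament desmin, was higher in them, at 1805, 1747 and 1129 CPM against 858, 438 and 364 CPM. The cells left out for *Pdgfra*, a fibroblast receptor, carried 583 to 1419 CPM of *Myh11* and 4030 to 12321 CPM of *Dcn*, a fibroblast proteoglycan, across the 4 libraries. These are descriptions, since the rule sorted the cells.

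RNA of other cell types was also found in members. Markers of fibroblasts summed to 10215 and 15083 CPM in small intestinal and 5729 and 8903 CPM in colonic members, with 7 of 8 detected in each library and *Pdgfra* at 0 by the rule. The other cells stood at 20620 to 38092 CPM. The 8 pericyte markers summed to 1473 and 862 CPM in small intestine and 666 and 519 CPM in colon, against 860, 857, 518 and 216 CPM in the other cells, with *Higd1b* at 0 in members of each library. Most of the pericyte sum was *Rgs5*, at 1343 and 648 CPM in small intestinal and 462 and 330 CPM in colonic members, against 571, 635, 238 and 53.7 CPM in the other cells. Of 5 endothelial markers 1 to 3 were detected, at 1.88 to 6.87 CPM in sum, and the 4 mesothelial markers were at 0. *Kit*, the receptor of interstitial cells of Cajal, was found in 12 and 14 colonic members and in 0 small intestinal members. Immune markers summed to 302 and 41.5 CPM in small intestinal and 6.12 and 15.2 CPM in colonic members, the 5 markers of interstitial cells of Cajal to 30.9, 25.6, 158 and 75.9 CPM, plasma cell markers to 6.87 to 67.1 CPM, glial markers to 0 to 9.42 CPM and epithelial markers to 0 to 3.77 CPM. The comparison of intestines was refitted without members rich in fibroblast RNA, and with *Rgs5*, *Kit* and *Ptprc* at 0 (closing section). Beyond these refits, the part of these RNAs in the differences between intestines was not tested.

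Colon and small intestine were then compared on the summed counts of the members, to ask which genes separate the SMC of the 2 intestines. The quasi-likelihood test of edgeR called 63 of 9307 genes (0.677%) where the adjusted p (Benjamini-Hochberg) was under 0.05 and the log2 fold change exceeded 1.5 in size. Of these 21 (0.226% of genes tested) were higher in colon and 42 (0.451%) were lower. The median log2 fold change over all genes was 0.02, and 831 of them had an unadjusted p under 0.05. Higher in small intestinal SMC were, among others, *Npnt*, *Ccl11*, *Il33*, *Lrat* and enzymes of retinoic acid synthesis. Higher in colonic SMC were *Rbp4*, *Lgals3*, *Hoxa10*, *Isl1* and *Sema3a*, among others. *Lrat* was also at 179 and 306 CPM in the other small intestinal cells, against 1.52 and 0.471 CPM in those of colon. For *Lrat*, *Rbp4*, *Lgals3*, *Hoxa10*, *Isl1* and *Sema3a* the effect was not called as different from that in the other cells (below). Each of the 63 genes differed in the same direction within the replicate 1 libraries and within the replicate 2 libraries, as did 5839 of all 9307 genes tested; the calls were made on these same libraries. Of the 21 genes, 17 were also higher in SMC than in the other cells of both colon libraries (4294 of all 9307 genes tested were), and of the 42 genes 24 were higher in SMC than in the other cells of both small intestine libraries (3921 of all were). The number called rested on single libraries: without 1 of them it was 8 (small intestine replicate 1), 23 (small intestine replicate 2), 137 (colon replicate 1) or 235 (colon replicate 2).

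**Figure D3:**
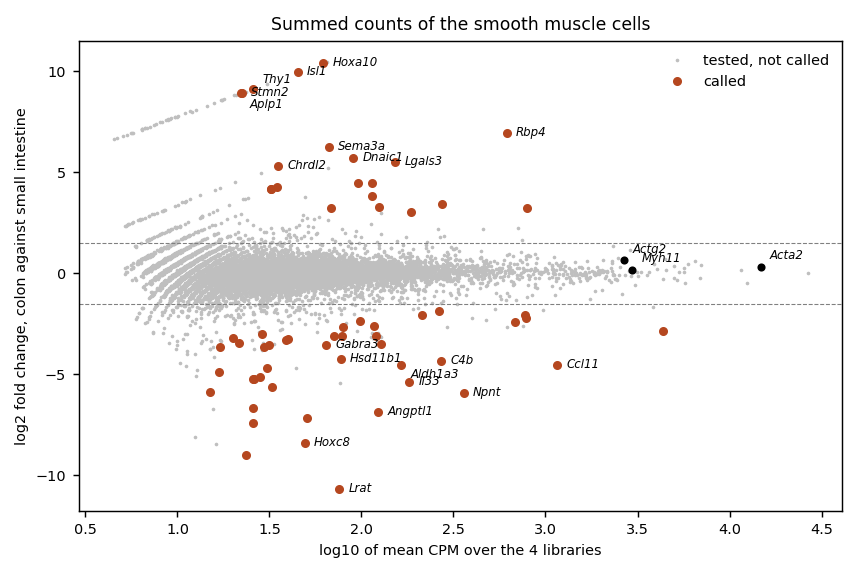
Log2 fold change of colon against small intestine for the 9307 genes tested in the summed counts of SMC, by log10 of mean CPM. Red points are the 63 called genes, dashed lines mark 1.5 in either direction, and straight runs of points at the top and bottom are genes with no UMI in an intestine, whose fitted fold depends on the prior count. *Acta2*, *Actg2* and *Myh11* (black) lie at 0.34, 0.65 and 0.19.

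No gene of the contractile filament list was called between the intestines. Of 30 genes of the contractile filament and its regulators 28 were tested and 0 were called (2 had an unadjusted p under 0.05; DESeq2 called 0 of 29), with a median log2 fold change of 0.13 against 0.02 over all genes. *Acta2* differed by 0.34 ± 0.33 (SE) on the log2 scale (adjusted p = 0.902). *Myh11* was at 2579 and 2987 CPM in small intestinal SMC and 3133 and 3159 CPM in colon, a log2 fold change of 0.19 ± 0.27. *Myl6*, the essential light chain of myosin, differed by 0.09 ± 0.28 and *Tagln* by 0.15 ± 0.32. *Des*, chosen after its values were seen, was at 858 and 872 CPM in small intestinal against 438 and 364 CPM in colonic SMC and was not called either (log2 fold change -1.10 ± 0.28, adjusted p = 0.191).

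The lists for anchorage and for calcium handling also had no call by edgeR. Of the dense plaque, dystrophin complex and caveolae 34 of 36 genes were tested and 0 were called by edgeR (6 with an unadjusted p under 0.05, median 0.21; DESeq2 called 3 higher in colon). *Flna* differed by -0.21 ± 0.28, *Csrp1*, a LIM domain protein of the actin cytoskeleton, by 0.07 ± 0.38, and *Prkcdbp*, a caveola protein, by 0.58 ± 0.30. *Cav3*, the muscle caveolin, is not on that list and was called: it was at 3.43 and 3.19 CPM in small intestinal SMC and 67.8 and 63.9 CPM in colon, a 19.8-fold ratio (95% counting interval 5.44 to 164, adjusted p = 0.0254). Of calcium handling, channels and cGMP signalling 30 of 37 were tested and 0 were called by edgeR (8 with an unadjusted p under 0.05, median 0.38; DESeq2 called 1, *Kcnk2*, lower in colon). *Pde5a*, the cGMP-degrading target of sildenafil, was at 275 and 463 CPM against 243 and 333 CPM in colon (-0.34 ± 0.36). *Atp2a2*, the calcium pump of the sarcoplasmic reticulum, differed by -0.21 ± 0.33 and *Gucy1a3*, a subunit of the nitric oxide receptor, by 0.41 ± 0.31. Off these lists, *Sntg1*, a syntrophin, *Kcnk3*, a potassium channel, and *Pde1c*, a phosphodiesterase, were called lower in colon. *Pde6h*, another phosphodiesterase subunit, was called higher.

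*Npnt* had the lowest adjusted p of the comparison. It encodes nephronectin, a matrix ligand of integrin α8β1 (chromosome 3, 132881745 to 132950291, GRCm38). It was at 642 and 773 CPM in small intestinal SMC and at 12.2 and 10.5 CPM in colonic SMC, while the other cells lay between 1.76 and 7.81 CPM in all 4 libraries. Only small intestinal members were high. The log2 fold change was -5.94 ± 0.36 (SE, adjusted p = 0.0045). A *Npnt* UMI was found in 79.6% and 67.9% of small intestinal members, in 4.26% and 2.22% of colonic members, and in 1.75% and 2.02% of the endothelial-marker cells of the replicate 1 libraries (median 4631 and 5317 UMIs). After thinning to 1000 UMIs the shares of members were 46.9%, 52.2%, 1.55% and 1.05%, and those of the endothelial-marker cells 0.585% and 0.810%. The replicate 2 libraries held too few endothelial-marker cells (1 and 24) for this background. *Itga8*, the integrin subunit that binds nephronectin, lay towards colon at 104 and 123 CPM against 24.0 and 12.8 CPM and missed the threshold (2.64 ± 0.44, adjusted p = 0.057), but was called under 7 of 16 alternatives, DESeq2 among them.

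*Ccl11*, *Il33*, *Adamdec1* and *C4b* were called higher in small intestinal SMC. *Ccl11* encodes eotaxin, a chemoattractant of eosinophils. SMC had 2510 and 1942 CPM of it in small intestine and 101 and 91.5 CPM in colon, while the other cells had 938, 824, 782 and 326 CPM. SMC thus stood above the other cells in small intestine and below them in colon (log2 fold change -4.52 ± 0.33, adjusted p = 0.00666). *Il33*, an alarmin of the IL-1 family, showed the same order, with 409 and 303 CPM against 6.12 and 10.5 CPM in SMC and 109.9, 145, 34.3 and 52.7 CPM in the other cells (-5.37 ± 0.43, adjusted p = 0.00666). *Adamdec1*, a metalloprotease of the gut lamina propria, was at 9459 and 5868 CPM in small intestinal and 1090 and 1026 CPM in colonic SMC (-2.85 ± 0.34, adjusted p = 0.0196). *C4b*, complement component 4, was at 433 and 604 CPM against 18.4 and 32.3 CPM, but below the 803 and 1066 CPM of the other small intestinal cells (-4.32 ± 0.42, adjusted p = 0.00893).

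The interferon response list lay towards small intestine in nearly all its genes. Of 25 genes tested 24 had a negative log2 fold change, with a median of -1.58, and 0 were called higher and 2 lower in colon (18 had an unadjusted p under 0.05; DESeq2 called 0 higher and 5 lower). The called genes were *H2-K1*, an MHC class I heavy chain, at 1119 and 1195 CPM in small intestine and 197 and 237 CPM in colon (-2.40 ± 0.30, adjusted p = 0.021), and *B2m*, its light chain, at 1246 and 1329 CPM and 275 and 284 CPM (-2.19 ± 0.28, adjusted p = 0.0222). Both lost the call without either small intestine library (adjusted p = 0.107 to 0.180). *H2-D1* was at 1724 and 1284 CPM and 426 and 419 CPM and missed the threshold (-1.82 ± 0.30, adjusted p = 0.057). It was called under 7 of 16 alternatives, DESeq2 among them. MHC class I genes have near-identical copies, so that their counts are uncertain. The other cells had 2480 and 2183 CPM of *H2-K1* in small intestine against 596 and 502 CPM in colon, and the effect in SMC minus that in the other cells was -0.17 ± 0.18 (adjusted p = 0.835).

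Retinoid genes were called in both directions. Retinoic acid is made from retinol by aldehyde dehydrogenases, and retinol is stored as esters by *Lrat* and carried by retinol-binding protein 4. Of 15 retinoid genes tested 1 was called higher and 3 were called lower in colon, with a median of -0.52 (DESeq2 called 1 higher and 5 lower). *Aldh1a3* was at 385 and 246 CPM in small intestinal and 14.6 and 12.3 CPM in colonic SMC (-4.53 ± 0.39, adjusted p = 0.00742), and *Aldh1a2* at 261 and 208 CPM and 21.7 and 19.6 CPM (-3.49 ± 0.33, adjusted p = 0.00893). *Lrat* had 49 and 42 UMIs in small intestinal SMC, or 168 and 134 CPM, and 0 UMIs in both colon libraries. Against a floor of 3 counts over the group it was at least 245-fold higher in small intestine (adjusted p = 0.00666). The other small intestinal cells had more *Lrat*, at 179 and 306 CPM.

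*Rbp4*, the carrier of retinol, was higher in colonic SMC. It lies on chromosome 19 (38116629 to 38125281, GRCm38). SMC had 1 and 5 UMIs in small intestine against 2309 and 3748 in colon, where they amounted to 1087 and 1361 CPM, and the other cells had 57.2, 42.3, 388 and 212 CPM. The log2 fold change was 6.96 ± 0.56 (adjusted p = 0.00666). A UMI was found in 79.8% and 77.8% of colonic members (51.6% and 56.9% at 1000 UMIs) and in 2.04% and 1.49% of small intestinal members. The other colonic cells had one in 49.1% and 32.7% (17.3% and 13.5% at 1000 UMIs), and the endothelial-marker cells of colon replicate 1 in 3.64%.

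Hox genes were called in both directions. They lie in clusters whose order matches the order of their expression from anterior to posterior, and they carry positional identity along the gut. Of 39 Hox genes 19 passed the filter on low counts, which a gene absent from an intestine passes only through the other, and 1 was called higher and 4 lower in colon (median -2.41; 17 had an unadjusted p under 0.05). *Hoxa10* had 287 and 309 UMIs in colonic and 0 UMIs in small intestinal SMC, at least 24.6-fold higher in colon (adjusted p = 0.0142). *Hoxa9*, *Hoxa11*, *Hoxa13* and *Hoxd11* were also at 0 in both small intestine libraries and at 23.5 to 57.4 CPM in colon, with adjusted p between 0.0522 and 0.131, and were not called by edgeR. DESeq2 called these 4 among 5 Hox genes higher and 9 lower in colon. *Hoxc8* had 35 and 24 UMIs in small intestinal and 0 and 1 in colonic SMC, a 476-fold ratio with a 95% counting interval of 82.2 to 19126 (adjusted p = 0.00742). *Hoxc4* had 13 and 18 UMIs against 1 and 1, a 125-fold ratio (31.8 to 1079, adjusted p = 0.00814), and *Hoxc6* 65.2 and 35.1 CPM against 0.942 and 1.45 CPM (-5.24 ± 0.60, adjusted p = 0.0181). *Hoxb4* was at 68.7 and 76.7 CPM and 7.06 and 7.62 CPM (-3.27 ± 0.39, adjusted p = 0.0196). The other cells had 0 CPM of *Hoxa10* in both small intestine libraries and 65.3 and 50.2 CPM in colon.

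Other regulators were called singly. *Isl1*, a LIM homeodomain factor, had 145 and 309 UMIs in colonic SMC and 0 in small intestinal SMC, at least 18.7-fold higher in colon (adjusted p = 0.0325, and 0.145 or 0.109 without small intestine replicate 1 or 2). *Osr1*, a zinc finger factor of mesenchyme, was at 224 and 229 CPM in colon and 13.7 and 31.9 CPM in small intestine (3.31 ± 0.43, adjusted p = 0.0222). It was the 1 gene called among 33 tested transcription factors (0 were called lower, median -0.23; DESeq2 called 3 higher, *Hand1*, *Osr1* and *Pitx1*, and 0 lower). *Nkx2-3*, a homeobox factor of gut mesenchyme, was at 635 and 1016 CPM in small intestinal SMC and 267 and 547 CPM in colon and was not called (-0.99 ± 0.43). *Tcf21* varied by replicate number rather than intestine, at 1195 and 380.1 CPM in small intestine and 1069 and 327 CPM in colon.

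Of the listed receptors, *F2r* was called. *F2r*, the thrombin receptor PAR1, was at 54.9 and 38.3 CPM in small intestinal and 527 and 472 CPM in colonic SMC (3.43 ± 0.36, adjusted p = 0.0109), against 187 and 113 CPM in the other colonic cells. Of 47 listed receptors 18 were tested, with 1 called higher and 0 lower in colon (10 had an unadjusted p under 0.05, median -0.35; DESeq2 called 2 in each direction). Off this list, *Nmur2*, a neuromedin U receptor, *Lepr*, the leptin receptor, and *Gabra3*, described below, were also called, each lower in colon. *P2ry14*, a UDP-glucose receptor, was at 666 and 431 CPM in small intestinal SMC and 333 and 327 CPM in colon (-0.72 ± 0.32), and *Ramp1*, a subunit of the CGRP receptor, at 103 and 121 CPM and 104 and 77.7 CPM (-0.29 ± 0.32). Neither was called. The muscarinic receptor *Chrm2* was at 0 CPM in small intestinal and 2.35 and 3.27 CPM in colonic members, too few counts to be tested.

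Among secreted niche and growth factors 41 were tested, 0 were called higher and 4 lower in colon (21 had an unadjusted p under 0.05, median 0.05; DESeq2 called 1 higher and 5 lower). *Angptl1*, an angiopoietin-like factor, had 244 and 246 CPM in small intestinal and 0 and 3.63 CPM in colonic SMC (-6.87 ± 0.82, adjusted p = 0.0201). *Mdk*, the growth factor midkine, was at 189 and 240 CPM and 18.8 and 30.9 CPM (-3.08 ± 0.38, adjusted p = 0.0211). *Grem1*, which binds and blocks BMPs, was at 295 and 393 CPM and 70.2 and 90.4 CPM (-2.08 ± 0.33, adjusted p = 0.0488). *Sfrp1*, a secreted Wnt antagonist, was at 1054 and 1444 CPM and 258 and 329 CPM (-2.07 ± 0.32, adjusted p = 0.0471). The last 2 lay close to the threshold and were called under 10 and 8 of 16 alternatives. With *Rgs5*, *Kit* and *Ptprc* also at 0 in members, *Grem1* was at -0.47 (adjusted p = 0.928). The other cells had 1588 and 2764 CPM of *Sfrp1* in small intestine against 537 and 512 CPM in colon.

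The remaining genes named by size of change were less abundant or shared with other cells. *Lgals3*, galectin-3, was at 3.43 and 9.58 CPM in small intestinal and 261 and 334 CPM in colonic SMC (5.50 ± 0.50, adjusted p = 0.00814). *Sema3a*, a repellent axon guidance cue, had 0 and 1 UMIs against 225 and 433, an 81.5-fold ratio (14.6 to 3224, adjusted p = 0.0196), and the other colonic cells had 9.66 and 10.8 CPM. *Chrdl2*, a BMP antagonist, had 0 and 1 UMIs against 120 and 223 (42.5-fold, 7.58 to 1683, adjusted p = 0.0455), and *Dnaic1*, an axonemal dynein chain, 1 and 1 against 479 and 356 (51.7-fold, 14.3 to 428, adjusted p = 0.0109). *Thy1*, *Stmn2* and *Aplp1* had 0 UMIs in small intestinal SMC and were at least 10.1-fold, 8.84-fold and 8.80-fold higher in colon. The other colonic cells had more *Thy1* (120.0 and 64.0 CPM) and *Stmn2* (102 and 125 CPM) than SMC did (60.3 and 42.5 CPM, and 51.3 and 38.1 CPM). *Hsd11b1*, which regenerates active glucocorticoid, was at 172 and 121 CPM in small intestinal SMC and 3.30 and 11.6 CPM in colon (-4.22 ± 0.60, adjusted p = 0.0325), and *Gabra3*, a GABA receptor subunit, at 158 and 79.9 CPM and 8.01 and 12.0 CPM (-3.53 ± 0.49, adjusted p = 0.0311).

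**Figure D4:**
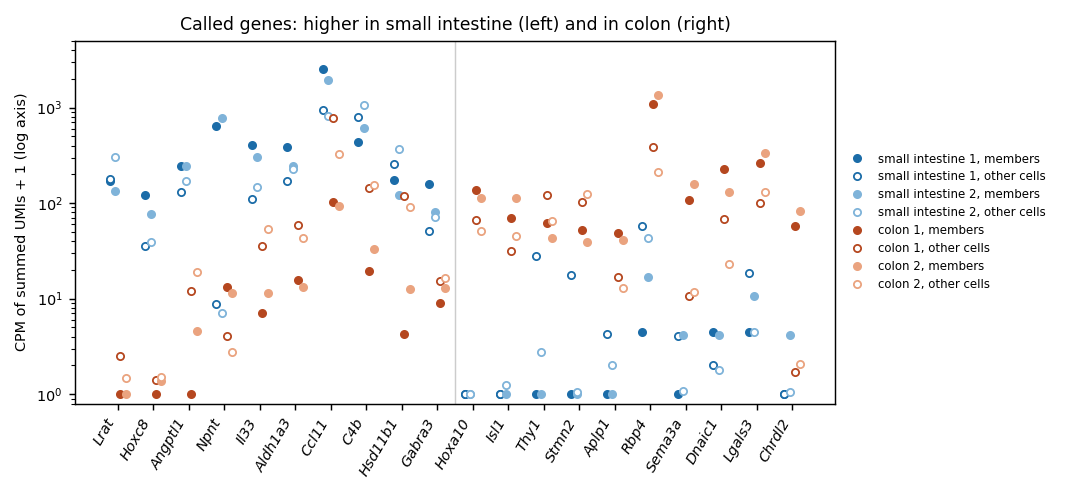
Level of the 10 called genes with the largest change in each direction in SMC (filled) and in all other QC-passing cells (open) of each library, as CPM of summed UMIs plus 1 on a log axis. *Npnt* is high only in small intestinal SMC (642 and 773 CPM), while *Lrat* is as high or higher in the other small intestinal cells and *Thy1* and *Stmn2* in the other colonic cells.

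Of 39 matrix genes tested *Npnt* was the 1 called, with a median of -0.41 over the list. *Col3a1*, fibrillar collagen, differed by 0.07 ± 0.38 and *Sparc*, a collagen-binding protein, by -0.57 ± 0.35. Of 22 immediate early and stress genes, which dissociation of a tissue can induce, 0 were called (2 had an unadjusted p under 0.05; DESeq2 also called 0; median 0.19). *Fos* was at 5789 and 4571 CPM in small intestinal and 8681 and 7093 CPM in colonic SMC (0.62 ± 0.28), *Jun* differed by 0.69 ± 0.36 and *Junb* by 0.09 ± 0.32.

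Whether an effect of intestine was larger in SMC than in the other cells was tested directly, as a class by tissue term. It was called for 92 of 13312 genes (0.691%), with a more positive colon effect in SMC for 33 (0.248%) and a more negative one for 59 (0.443%). *Npnt* led the latter, at -4.27 ± 0.30 (adjusted p = 5.95e-07), followed by *Il33* (-3.72 ± 0.31, adjusted p = 1.42e-05), *Ccl11* (-3.56 ± 0.35, adjusted p = 0.014, but 0.458 or 0.417 without small intestine replicate 1 or 2), *Angptl1* (-3.48 ± 0.49, adjusted p = 0.00556) and *F3* (-3.30 ± 0.25, adjusted p = 7.14e-07). *F3* encodes tissue factor. It was at 137 and 99.0 CPM in small intestinal and 67.8 and 44.7 CPM in colonic SMC, not a called difference, while the other cells had 68.7 and 53.1 CPM in small intestine and 455 and 212 CPM in colon. *Itga8* had the highest level in colonic SMC of the 5 genes with the largest positive difference (3.74 ± 0.43, adjusted p = 1.26e-04), and it was at 7.02, 4.91, 3.99 and 2.52 CPM in the other cells. *F2r* and *Osr1* also differed (2.38 ± 0.27, adjusted p = 7.07e-05, and 2.19 ± 0.32, adjusted p = 8.52e-04), as did *Grem1* (-1.72 ± 0.20, adjusted p = 1.11e-04). For *Hoxa10*, *Lrat*, *Rbp4* and *Lgals3* the difference was not called, with adjusted p of 1, 0.702, 0.311 and 0.212. Nor was it for *Isl1* (adjusted p = 0.897) and *Sema3a* (adjusted p = 0.207). *Hoxa10*, *Lrat* and *Isl1* had 0 UMIs in SMC of an intestine, so that their fitted difference depends on the prior count.

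Members also varied among themselves. After thinning each member to 1000 UMIs the median ratio of variance to mean was 1.03 over 1974 genes with at least 20 UMIs in each library; counting error alone gives 1. The 10 genes with the largest mean ratio were *Gm42418*, *Malat1*, *Mgp*, *Adamdec1*, *Gsn*, *Fos*, *Acta2*, *Jun*, *Dcn* and *Junb*, from 18.4 for the lincRNA *Gm42418* to 4.27 for *Junb*. *Dcn* and *Mgp* are matrix genes of fibroblasts, and 4, 7, 2 and 27 members carried as much RNA of 7 fibroblast genes as the median other cell of their library. *Fos*, *Jun* and *Junb* are immediate early genes. Of contractile genes *Acta2* had the largest mean ratio, with 7.22, 3.53, 4.45 and 3.65 (small intestine, then colon). *Tagln* had a mean ratio of 3.93 and lay above *Acta2* in small intestine replicate 2, at 3.99. Of the rule's markers *Actg2* had 2.49, *Cnn1* 1.89, *Myh11* 1.85, *Synpo2* 1.33 and *Lmod1* 1.12.

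The 26 colonic members with a *Kit* UMI (12 and 14) had lower levels of muscle genes than the other members. *Acta2* was at 6621 and 1890 CPM in them and at 21003 and 13325 CPM in the other members, and *Myh11* at 552 and 620.3 CPM against 3335 and 3224 CPM. *Ano1*, the chloride channel of interstitial cells of Cajal, was at 871 and 952 CPM against 23.4 and 17.1 CPM. *Gja1*, the gap junction protein connexin 43, was at 1488 and 923 CPM against 11.7 and 10.1 CPM. They had median UMIs of 11922 and 4844 against 8046 and 2972. These cells were chosen after their values had been seen and are given as a description. The rule did not exclude *Kit*. With *Rgs5*, *Kit* and *Ptprc* also required to be at 0 the number of genes called between intestines was 25 of 7141. Of these, 24 were among the 63. Nearly all members lost in this way carried *Rgs5*, found in 33 and 78 small intestinal and 107 and 270 colonic members. Left were 16 and 56 small intestinal and 151 and 586 colonic members.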

How the data were processed

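UMI counts per gene and cell barcode were deposited by the authors as raw counts, with no normalization, in 4 matrices of the same 28692 genes. Per the labels reads were aligned to mm10 and counted with Cell Ranger; the matrix headers name version 3.0.2 (replicate 1) and 3.1.0 (replicate 2). Kit chemistry per library is not given in the sources used here. The members, gene lists and tests were chosen with earlier results of these data known.

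Counts of members, and of all other QC-passing cells, were summed per library. CPM are summed counts scaled to the same total per library. Colon and small intestine were compared with edgeR 4.0.16 (R 4.3.3; filterByExpr, TMM, robust quasi-likelihood fit, no block) and a gene was called where the adjusted p (Benjamini-Hochberg) was under 0.05 and the log2 fold change exceeded 1.5 in size. The class by tissue term was fitted with library as a block. With 2 libraries per group, p-values measure only the spread between these pools. SE was the fold change divided by the root of F. Ratios of members to other cells had 10 CPM added. Folds against 0 counts used a floor of 3 counts over the group, and those against 1 to 3 counts have a 95% counting interval. Doublets (scrublet in scanpy 1.11.5, expected rate 0.8% per 1000 cells) were kept, being 69 of the members, and left out as an alternative. Code was tested on simulated counts. Positions are of GENCODE vM21 (GRCm38; 28339 of 28692 IDs matched) and promoter windows of RefSeq.

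Named genes were, per direction, the 10 called genes with the largest change (20 or more UMIs in both libraries on the higher side); the 15 with the largest smallest ratio to other cells; up to 4 called genes per list, filled to 3 by mean CPM; the 5 largest class by tissue differences per direction; the 10 with the largest spread; and the 8 genes of the rule. Other genes were named after their values were seen: *Cav3*, *Kcnk2*, *Hand1*, *Pitx1*, *Des*, *Postn*, *Chrm2*, *Hoxb4*, the uncalled Hox genes, and those of the *Kit* subset. So were *Sntg1*, *Kcnk3*, *Pde1c*, *Pde6h*, *Nmur2* and *Lepr*. Alternatives changed the normalization, test, filter, cell filters, rule and libraries used. DESeq2 1.42.0 was 1 of them.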

Additional observations from a re-analysis of the deposited data

Results flagged for a closer look

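The effect of intestine differed between SMC and the other cells, by edgeR's test of the class by tissue term, for 17 of the named genes. More negative in SMC (log2 colon effect in SMC minus that in the other cells) were *Npnt* (-4.27), *Il33* (-3.72), *Ccl11* (-3.56), *Angptl1* (-3.48), *F3* (-3.30), *Actc1* (-2.41), *Aldh1a3* (-2.39), *Aldh1a2* (-2.01), *Grem1* (-1.72) and *C4b* (-1.54). For *Actc1*, the colon effect in SMC itself was not called (0.78 ± 0.45, adjusted p = 0.739), and the level in the other cells was 0.289 and 0.317 CPM in small intestine and 4.75 and 1.52 CPM in colon. More positive in SMC were *Cd24a* (12.57), *Mfsd6* (11.84), *Arhgdib* (6.20), *Slc38a1* (5.88), *Itga8* (3.74), *F2r* (2.38) and *Osr1* (2.19). *Cd24a* and *Mfsd6* had 0 UMIs in small intestinal SMC and *Arhgdib* and *Slc38a1* had 1, so that these fitted differences depend on the prior count. *Arhgdib* was at 62.5 CPM in the other cells of small intestine replicate 1 and at 2.69 CPM in those of replicate 2, and *Cd24a* at 93.7 and 10.6 CPM. Markers of immune cells summed to 777 and 27.4 CPM in the same cells, and their part in these values was not tested. With 2 libraries per group no library could be tested as standing apart from its group.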

How the results depend on the processing

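The number of genes called between intestines (63) was 350 of 15031 without the filter on low counts, 139 with DESeq2, 113 without doublets, 38 at 5% mitochondrial UMIs, 37 with the rule on thinned cells and 25 with *Rgs5*, *Kit* and *Ptprc* also at 0. Leaving out 1 library gave 8 to 235, and the lone library of a group is then assumed to vary like the other group. Each main call that could be fitted kept its direction under these settings and with RLE normalization, 2 or 4 markers and 1000 genes, and with members rich in fibroblast RNA left out, which was added after seeing the data (51 called, all 51 among the 63). The number of differences between SMC and the other cells (92) was 183 without the filter, 142 without doublets, 149 with 2 markers and 111 to 222 without a library (140 without colon replicate 1 and 222 without colon replicate 2). Of the 92, 58 were still called without either small intestine library, 72 and 78 without either colon library, and 47 with *Rgs5*, *Kit* and *Ptprc* at 0, where 85 of 89 fitted kept their direction. The share difference (6.91 points) was 4.98 to 8.84 without a library and moved by less than the spread under each other setting. Of 494 refitted values of the 31 named called genes, 397 were called, and of 736 of the 47 named genes without a call, 33 were. *Malat1*, not called at 0.03, ranged from -2.11 to 1.75 without a library and was called at -2.11 without colon replicate 2. *Npnt*, *Ccl11*, *Il33*, *Lrat*, *Hoxc8*, *Aldh1a3* and *C4b* were called under all 16 alternatives, and *Aplp1* and *Stmn2* under 6, *Thy1* under 7 and *Sfrp1* and *Chrdl2* under 8. *Isl1*, *Grem1* and *Hsd11b1* were called under 10, *H2-K1* and *B2m* under 12 and *Hoxa10* under 14 of 16. *F2r*, *Osr1* and *Sema3a* were called under 13, and *Mdk* and *Angptl1* under 14 of 16. Of the 14 alternatives of the difference, *Slc38a1* was called under 10, *Cd24a* under 11 and *Ccl11* and *Mfsd6* under 12.

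With the replicate number as a replicate block 369 genes were called, including the 63. Labels do not say what the number marks. Deviations of same-numbered libraries correlated (r = 0.509 over 9307 genes), with only 2 pairs, and the number also goes with the Cell Ranger version. Small intestinal members, with 291246 and 313058 UMIs, limit the detection of low genes.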
